A study of Homo sapiens with 4 samples.

Results

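A set of 10 regulators of pluripotency was followed between unmodified H1 cells and H1 cells carrying MEK5DD. They were taken by symbol from the deposited table of normalised read counts, where all 10 were found among 17472 listed genes: POU5F1, NANOG, DPPA2, DPPA4, UTF1, ZFP42, LIN28A, SALL4, PRDM14 and TFCP2L1. All 10 passed the filter on low values, and 15721 genes did so in all. H1 is a long-established human embryonic stem cell line. The study sequenced poly(A) RNA from 2 WT libraries and 2 libraries of a MEK5DD overexpression line, all in E8, a defined medium with FGF2 and TGF-beta. MEK5DD is MAP2K5, the kinase that activates MAPK7 (ERK5), with the phosphorylated sites of its activation loop changed to aspartate. A lentivirus carried it in, puromycin selection followed, and 1 such line is described. No cells given virus and puromycin without MEK5DD are among the samples, so MEK5DD, delivery and selection cannot be told apart in any value below. The labels do not say whether the libraries of a group came from separate cultures, so the spread that p-values rest on here may be only technical.

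Pluripotent cells hold their state through a small circuit of transcription factors. POU5F1 (OCT4) and its partner SOX2 bind together at many enhancers, and NANOG joins them there. Human embryonic stem cells resemble the later, primed state of the epiblast. Factors such as TFCP2L1 are linked to the earlier, naive state, and ZFP42 (REX1) is a long-used marker of undifferentiated cells. DPPA2 and DPPA4 are paralogs with a DNA-binding SAP domain that act as a pair on chromatin. LIN28A binds RNA and blocks the maturation of let-7 microRNAs.

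Among the 10 regulators, DPPA2, TFCP2L1, UTF1 and NANOG rose in MEK5DD cells. DPPA2 rose 2.85-fold, TFCP2L1 1.48-fold, UTF1 1.47-fold and NANOG 1.20-fold. POU5F1, DPPA4, ZFP42, LIN28A, SALL4 and PRDM14 were not called. None fell in limma, and the number that fell was also 0 with edgeR, with DESeq2 and at an unadjusted p under 0.05 in limma. These 4 calls of 10, all higher, stand against calls in 14.2% of all genes tested, 7.69% higher and 6.47% lower (limma, adjusted p under 0.05). The median log2 fold change was 0.12 over the 10 regulators and -0.0023 over all genes tested. The median size of the change, without its sign, was 0.17 in the regulators and 0.17 in all genes tested. MAP2K5, which checks the labels, had normalised read counts of 344 and 315 in WT and 3382 and 3558 in MEK5DD.

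The promoter sequences of the 4 regulators that rose are shown here with that of DPPA4, the neighbour of DPPA2 whose level was not called. They let a reader see what lies upstream of each RefSeq start. Each run is the 250 bases before the start site in RefSeq (GRCh38.p14), written 5′ to 3′ on the gene's strand. The DPPA4, NANOG and TFCP2L1 windows overlap annotated exon of their own gene by 26, 6 and 5 bases. In the GENCODE v29 annotation NANOG starts earlier, at base 7787794, so its window lies inside that span. Capitals mark matches to 8 motifs, searched on both strands. POU factors were searched as ATGCAAA and, in the longer octamer that contains it, as ATGCAAAT. SOX factors were searched as ACAATG, and a second form of the same motif was searched as ACAAAG. KLF factors were searched as GGGTGTG, and the GC box that SP and KLF factors share as GGGCGG. The TATA box was searched as TATAAA, and the AP-1 motif, where N is any base, as TGANTCA.
DPPA2 (chr3:109316518-109316767, minus strand): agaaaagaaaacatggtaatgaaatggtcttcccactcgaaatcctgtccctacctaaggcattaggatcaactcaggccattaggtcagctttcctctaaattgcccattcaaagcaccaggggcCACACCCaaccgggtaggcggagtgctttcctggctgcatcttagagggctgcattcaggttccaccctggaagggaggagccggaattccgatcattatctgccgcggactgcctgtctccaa
DPPA4 (chr3:109337547-109337796, minus strand): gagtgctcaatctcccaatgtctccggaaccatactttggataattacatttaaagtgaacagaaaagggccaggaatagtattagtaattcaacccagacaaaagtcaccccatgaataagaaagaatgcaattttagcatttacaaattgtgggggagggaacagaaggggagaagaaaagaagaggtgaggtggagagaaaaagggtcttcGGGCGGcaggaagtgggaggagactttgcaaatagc
UTF1 (chr10:133229967-133230216, plus strand): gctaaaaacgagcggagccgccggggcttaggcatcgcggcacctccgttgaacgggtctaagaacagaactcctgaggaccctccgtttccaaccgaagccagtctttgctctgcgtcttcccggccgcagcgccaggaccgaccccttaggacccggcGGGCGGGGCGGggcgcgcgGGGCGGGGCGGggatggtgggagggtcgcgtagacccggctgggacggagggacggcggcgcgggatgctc
TFCP2L1 (chr2:121285203-121285452, minus strand): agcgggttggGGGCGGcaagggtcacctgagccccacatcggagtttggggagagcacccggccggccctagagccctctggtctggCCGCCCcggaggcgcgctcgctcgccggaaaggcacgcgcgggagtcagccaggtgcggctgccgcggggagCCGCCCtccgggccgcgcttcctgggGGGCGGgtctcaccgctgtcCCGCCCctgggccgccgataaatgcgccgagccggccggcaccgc
NANOG (chr12:7789152-7789401, plus strand): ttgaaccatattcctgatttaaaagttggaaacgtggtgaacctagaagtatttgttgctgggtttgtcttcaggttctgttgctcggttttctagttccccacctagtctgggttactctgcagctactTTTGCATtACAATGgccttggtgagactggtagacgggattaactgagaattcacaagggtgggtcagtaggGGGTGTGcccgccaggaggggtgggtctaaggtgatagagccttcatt

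The windows differed in base composition. UTF1 and TFCP2L1 lie behind GC-rich sequence, with 70.8% and 76.8% G or C and 32 CpG dinucleotides each. DPPA2, DPPA4 and NANOG have 52.0%, 43.2% and 47.6% G or C, with 7, 3 and 4 CpG. The median over 27305 promoters was 58.0% and 11 CpG. NANOG alone of the windows searched held a POU match, followed after a single base by a SOX match, 120 and 112 bases before the start. Of all promoters 3.98% held the POU letters and 9.45% the first SOX form. NANOG and DPPA2 each held a KLF match, as did 6.52% of all promoters. UTF1 and TFCP2L1 held 4 and 5 GC boxes and DPPA4 held 1, against 42.3% of all promoters with at least 1. ZFP42, which also had a table entry, held 3 GC boxes. The table holds no entry for POU5F1, LIN28A, SALL4 or PRDM14. No window held the octamer, the second SOX form, the TATA box or the AP-1 motif, which 1.66%, 13.7%, 11.1% and 6.60% of all promoters hold. A match is a description of letters and shows no binding.

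The regulators span a wide range of abundance. Levels between genes are compared as normalised read counts per kilobase of annotated exon (GENCODE v29), averaged over the WT libraries. POU5F1 was highest at 13516 per kb, followed by LIN28A at 7996 and DPPA4 at 3791. ZFP42 (1200), UTF1 (899) and NANOG (858) formed a middle group, then SALL4 (442), PRDM14 (323) and DPPA2 (177), with TFCP2L1 at 28.0 far below the rest. POU5F1 stood 26th of 17083 genes with a length by this measure in WT, and TFCP2L1 10513th. In the WT libraries UTF1 measured 895 and 903 per kb and NANOG 868 and 848, a gap that depends on the exon length used. With the longest transcript as length the 2 genes came to 899 and 893. In MEK5DD cells DPPA2 reached 506 per kb, above SALL4 (421) and PRDM14 (304), so it moved from the 9th to the 7th place. The order of the other regulators relative to each other did not change.

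**Figure D1:**
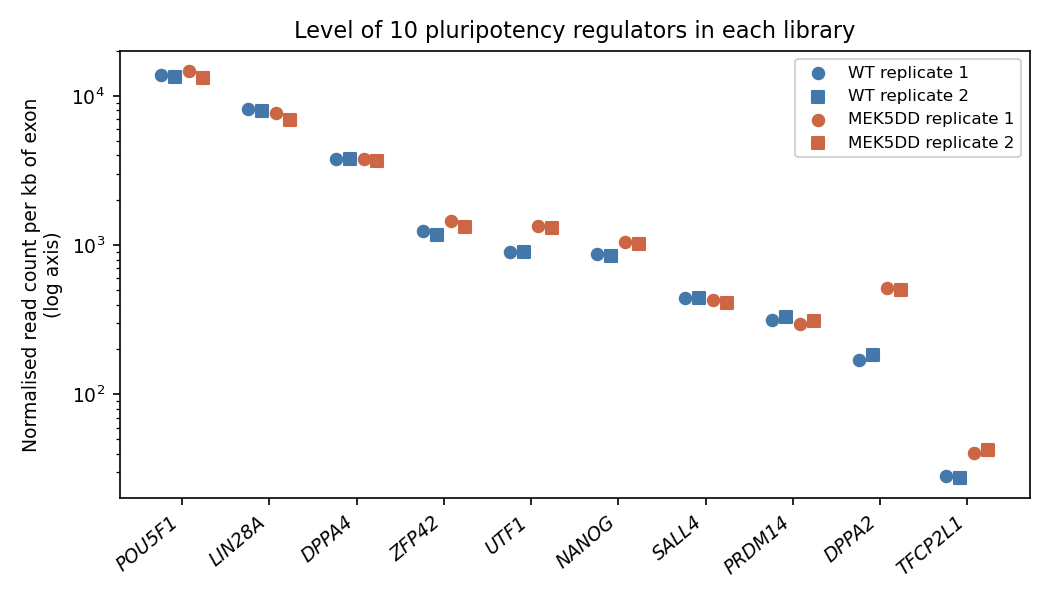
Normalised read count per kilobase of exon (log axis) for each regulator, ordered by WT level, with 1 point per library (circles replicate 1, squares replicate 2, blue WT, orange MEK5DD). DPPA2 moves from 177 per kb in WT to 506 in MEK5DD, above SALL4 and PRDM14, and TFCP2L1 is the least abundant in every library.

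POU5F1, the factor that the circuit is built on, had normalised read counts of 39714 and 38568 in WT and 42386 and 38116 in MEK5DD. Both WT values lie between the MEK5DD values. The log2 fold change was 0.04 (SE 0.06, adjusted p = 0.752 in limma), with a 95% interval from 6.81% lower to 13.2% higher. The MEK5DD libraries differed by more than the WT libraries, replicate 2 being at 0.899 of replicate 1 against 0.971 in WT. Counting error is not the limit here, since 37030 to 46647 reads stand behind each value. The estimate was -0.04 without MEK5DD replicate 1, and without MEK5DD replicate 2 it passed the threshold at 0.12. In both of these fits the spread comes from the WT libraries alone. SOX2, the partner of POU5F1, had 4643 and 4515 in WT and 4030 and 3942 in MEK5DD. It fell by 0.20 on the log2 scale (adjusted p = 0.0437 in limma). The SOX2 call did not survive other settings: its adjusted p was 0.485 on dropping WT replicate 1, 0.350 on dropping WT replicate 2, 0.238 in limma without the trend of variance on mean (below, the variance trend) and 0.0990 in DESeq2. The ratio of POU5F1 to SOX2 within a library was 8.55 and 8.54 in WT and 10.5 and 9.67 in MEK5DD.

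NANOG, the homeodomain factor of the core circuit, had 4682 and 4576 in WT and 5655 and 5451 in MEK5DD. The groups did not overlap, and the 4 ratios of a MEK5DD library to a WT library ran from 1.16 to 1.24. The log2 fold change was 0.26 (SE 0.06, adjusted p = 0.0117 in limma, 95% interval 9.65% to 31.2% higher). Its adjusted p rose to 0.167 on dropping WT replicate 1, to 0.262 on dropping WT replicate 2 and to 0.167 on dropping the variance trend, so the call rests on both WT libraries and on that model. Relative to POU5F1 in the same library NANOG stood at 11.8% and 11.9% in WT and 13.3% and 14.3% in MEK5DD. Relative to SOX2 it stood at 1.01 in both WT libraries and 1.40 and 1.38 in MEK5DD. A ratio within a library does not depend on the scaling between libraries, but 2 against 2 libraries cannot give an exact permutation p below 0.333, the value it took here.

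DPPA2 showed the largest change of the 10. Its normalised read counts were 236 and 254 in WT and 711 and 690 in MEK5DD. Both MEK5DD values stood far above both WT values, with ratios from 2.71 to 3.01 between single libraries. The log2 fold change was 1.51 (SE 0.10, adjusted p = 9.2e-07 in limma), which ranked 94th from the top of 15721 genes. The values rest on 244 to 782 reads, which give a counting error of 6.40% to 3.58%. DPPA2 was the 1 regulator called in every alternative tried, with an estimate from 1.46 to 1.56 over all of them.

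DPPA4, the binding partner of DPPA2, lies 9.62 kb from it on chromosome 3 in the same direction. It had 18897 and 18980 in WT and 18925 and 18152 in MEK5DD. The groups overlap, and the log2 fold change was -0.03 (SE 0.06, adjusted p = 0.774 in limma), with a 95% interval from 10.1% lower to 6.57% higher. DPPA2 stood at 1.25% and 1.34% of the DPPA4 level in WT and at 3.75% and 3.80% in MEK5DD, on normalised counts not corrected for length. The ratio thus differed 2.92-fold between the groups, far more than within either (exact permutation p = 0.333, the smallest that this design allows). The MEK5DD pair was closer than the WT pair. Genes of zygotic genome activation, a programme that Dppa2 and Dppa4 are known to support in mouse cells, could not be followed: none of 14 such genes, among them ZSCAN4, DUXA and LEUTX, is listed in the table.

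UTF1, a chromatin-bound factor of undifferentiated cells, had 1036 and 1045 in WT and 1551 and 1510 in MEK5DD. The groups were clearly apart, with single-library ratios from 1.445 to 1.497. The log2 fold change was 0.56 (SE 0.07, adjusted p = 0.000278 in limma). UTF1 is a classical target of POU5F1 and SOX2. It stood at 2.61% and 2.71% of POU5F1 in WT and at 3.66% and 3.96% in MEK5DD. The call held in each fit that left out 1 library but not on dropping the variance trend (adjusted p = 0.0561).

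TFCP2L1, a transcription factor of the naive state, had 266 and 259 in WT and 383 and 398 in MEK5DD. All 4 single-library ratios lay between 1.44 and 1.53. The log2 fold change was 0.57 (SE 0.10, adjusted p = 0.00282 in limma), from 249 to 421 reads per library. As for UTF1, the call held without any 1 library but not on dropping the variance trend (adjusted p = 0.0566).

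ZFP42, the zinc finger gene known as REX1, had 3293 and 3083 in WT and 3873 and 3507 in MEK5DD. The groups did not overlap, but the smallest single-library ratio was 1.065 and the largest 1.256. Its log2 fold change of 0.21 (SE 0.07) missed the threshold (adjusted p = 0.0654 in limma, unadjusted 95% interval 4.10% to 28.5% higher). The adjusted p was 0.0086 in limma with the replicate number as a block. The estimate was 0.14 on dropping MEK5DD replicate 1 and 0.28 on dropping MEK5DD replicate 2. Both passed the threshold, in fits whose spread comes from the WT libraries alone. TFCP2L1 relative to ZFP42 stood at 8.08% and 8.41% in WT and at 9.88% and 11.3% in MEK5DD.

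LIN28A, the let-7 blocker, had 32521 and 31577 in WT and 30694 and 27582 in MEK5DD. Both MEK5DD values lay below both WT values, and the log2 fold change was -0.14 (SE 0.06, adjusted p = 0.182 in limma, 95% interval from 17.6% lower to 0.0365% higher). Without MEK5DD replicate 1 it passed the threshold at -0.22, in a fit whose spread comes from the WT libraries alone. LIN28A followed POU5F1 closely within each group: it stood at 81.9% of POU5F1 in both WT libraries and at 72.4% in both MEK5DD libraries. The MEK5DD libraries differed in both genes by about the same factor (replicate 2 at 0.899 of replicate 1), which leaves their ratio unchanged.

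SALL4, a zinc finger factor that recruits the NuRD complex, had 2569 and 2534 in WT and 2487 and 2369 in MEK5DD. Its log2 fold change was -0.07 (SE 0.06, adjusted p = 0.517 in limma, 95% interval from 13.7% lower to 4.85% higher). PRDM14, a zinc finger repressor of differentiation genes, had 771 and 805 in WT and 727 and 758 in MEK5DD, which limma put at -0.09 on the log2 scale (SE 0.08, adjusted p = 0.540). The MEK5DD values of both genes lay just below the WT values. Over the 10 regulators the groups did not overlap in 8 (5 higher, 3 lower), against 56.2% of all genes tested (28.2% higher, 28.0% lower). A gap between groups of 2 is therefore common in this table.

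**Figure D2:**
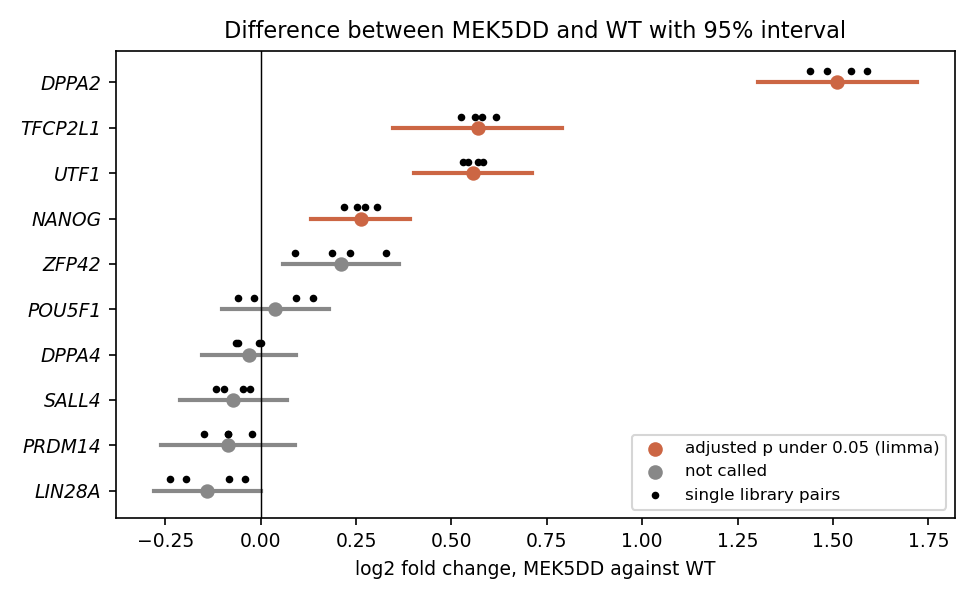
Log2 fold change of MEK5DD against WT with its 95% interval for each regulator (orange where limma's adjusted p is under 0.05, grey otherwise), and as small black points the 4 ratios between single libraries. DPPA2 (1.51) stands apart, TFCP2L1, UTF1 and NANOG lie above 0, and the intervals of POU5F1, DPPA4, SALL4, PRDM14 and, barely, LIN28A span 0.

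The MEK5DD libraries were less alike than the WT libraries, with a chi-square per degree of freedom of 6.11 between MEK5DD libraries and 1.88 between WT libraries, over all genes. Recovered reads ranged from 14908486 to 17628945 per library. In 8 of the 10 regulators MEK5DD replicate 1 was above replicate 2, against 52.2% of all genes tested, and the median ratio of replicate 2 to replicate 1 was 0.961 in the regulators and 0.992 in all genes. The regulators together held 0.670% and 0.655% of the reads in WT and 0.674% and 0.627% in MEK5DD, of which POU5F1, LIN28A and DPPA4 made up 85.1% to 87.7%. Relative to POU5F1 the MEK5DD libraries lay above both WT libraries for DPPA2, TFCP2L1, UTF1, NANOG and ZFP42, below both for LIN28A and SALL4, and overlapped WT for DPPA4 and PRDM14.

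**Figure D3:**
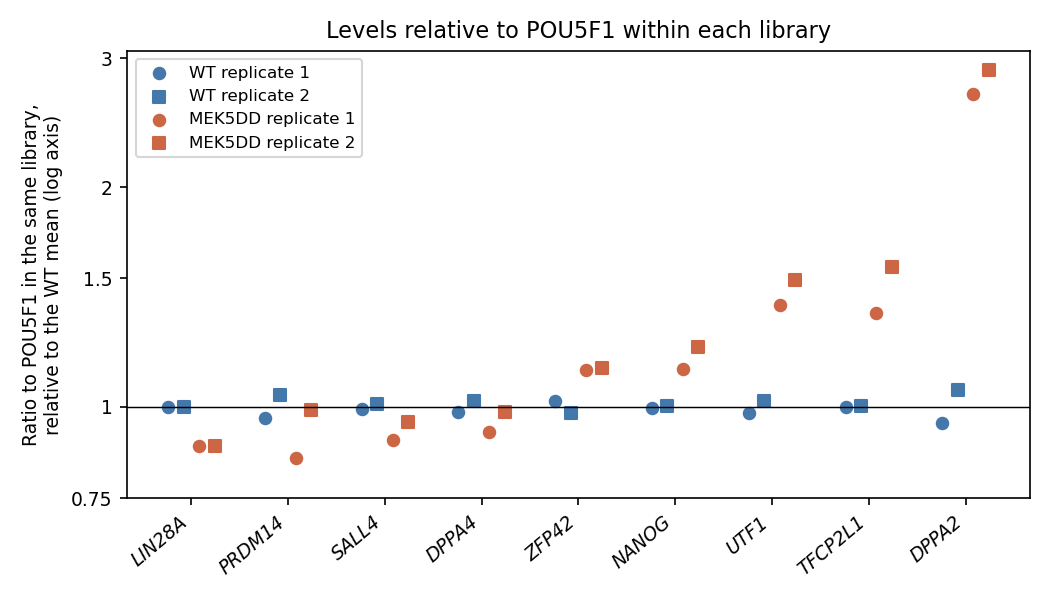
Ratio of each regulator to POU5F1 in the same library, divided by the mean WT ratio (log axis), with 1 point per library. LIN28A sits at nearly identical values within each group, and DPPA2, TFCP2L1, UTF1 and NANOG are higher in both MEK5DD libraries.

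Close copies can share reads with a gene. Of the distinct 50-base windows in the annotated POU5F1 transcripts, 16.4% also occur in POU5F1B, 14.2% in POU5F1P3 and 10.5% in POU5F1P4. Each of these copies was at most 0.424% of the POU5F1 level in any library. NANOG shares 12.3% of its windows with NANOGP8 and 8.52% with NANOGP1. NANOGP8 had 218 and 233 in WT and 252 and 275 in MEK5DD, at most 5.10% of NANOG (log2 fold change 0.22, adjusted p = 0.234 in limma), and NANOGP1 had 116 and 86.4 in WT and 140 and 113 in MEK5DD (0.32, adjusted p = 0.283). DPPA2 shares 3.60% of its windows with other genes, among them DPPA2P2 and DPPA2P3, which are not listed. UTF1, PRDM14 and TFCP2L1 share no window with another annotated gene. The sources used here do not state how the authors treated reads with several matches.

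Of 24 tested genes within 100 kb of a regulator, the regulators themselves left out, 2 rose and 3 fell (20.8%, against 14.2% of all genes tested). At the NANOG locus on chromosome 12 the glucose transporter gene SLC2A14, 13.4 kb away, rose by 0.52 (adjusted p = 0.0161 in limma). Its adjusted p was 0.129 on dropping WT replicate 2, 0.0638 in DESeq2 and 0.101 on dropping the variance trend. DPPA3 and GDF3, which lie in the same cluster and are also expressed in pluripotent cells, had log2 fold changes of 0.80 (SE 0.37, adjusted p = 0.178) and 0.19 (SE 0.09, adjusted p = 0.199). DPPA3 was scarce, at 11.5 in both WT libraries and 22.7 and 18.9 in MEK5DD.

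UTF1 on chromosome 10 sits between KNDC1 and VENTX. KNDC1, 3.86 kb away, fell from 384 and 393 to 273 and 256 (log2 fold change -0.55, adjusted p = 0.00349 in limma), the opposite direction to UTF1. Its adjusted p was 0.0617 on dropping the variance trend. The homeobox gene VENTX, 5.85 kb away, had 513 and 546 in WT and 641 and 628 in MEK5DD (0.26, adjusted p = 0.0639). The other tested genes near UTF1 were ADAM8 (0.40), TUBGCP2 (-0.06), AL360181.2 (0.59), ZNF511 (-0.05) and CALY (0.89), and no call was made for them. CLASP1, beside TFCP2L1, had -0.15 (adjusted p = 0.212).

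TCF19 overlaps POU5F1 on the opposite strand and rose from 554 and 553 to 708 and 658 (log2 fold change 0.30, adjusted p = 0.0346 in limma). The adjusted p of TCF19 was 0.242 on dropping WT replicate 1, 0.251 on dropping WT replicate 2, 0.0611 after quantile normalisation, 0.119 in DESeq2 and 0.151 on dropping the variance trend. Whether counting used strand is not given, so reads of the overlap cannot be assigned to either gene. Beside SALL4, the flippase gene ATP9A, 13.7 kb away, fell from 330 and 345 to 207 and 228 (-0.63, adjusted p = 0.00256 in limma), and on dropping the variance trend its adjusted p was 0.0603. HMGN2, 42.7 kb from LIN28A, was the third fall (-0.27, adjusted p = 0.0189 in limma). Its adjusted p was 0.204 on dropping WT replicate 1, 0.168 on dropping WT replicate 2 and 0.211 on dropping the variance trend.

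**Figure D4:**
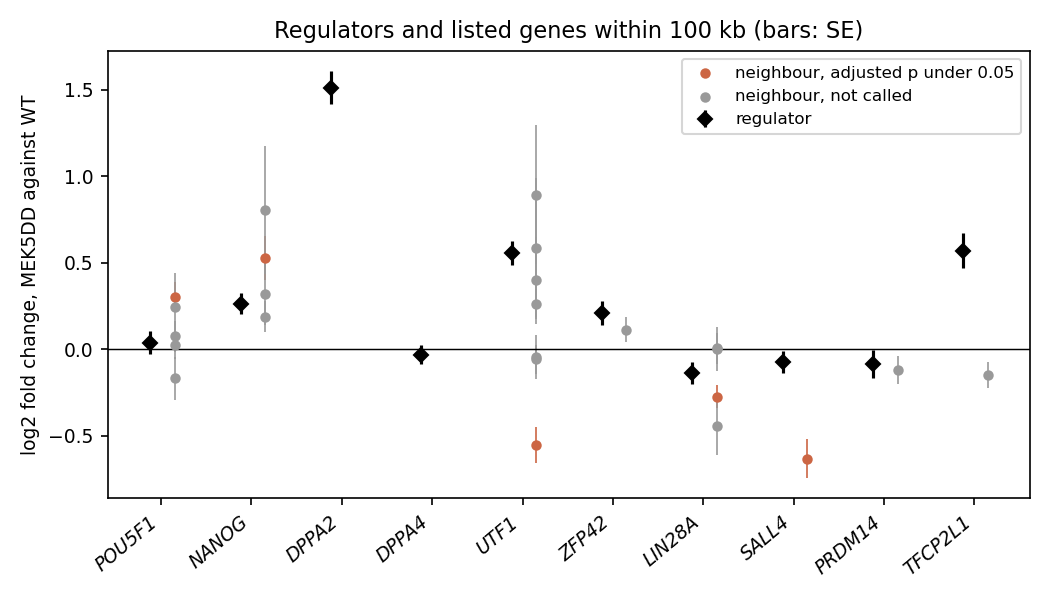
Log2 fold change with SE for each regulator (black diamonds) and for tested genes within 100 kb of it (circles, orange where limma's adjusted p is under 0.05). KNDC1 beside UTF1 (-0.55) and ATP9A beside SALL4 (-0.63) lie below 0, and DPPA2 has no tested neighbour other than DPPA4.

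Other genes of the pluripotency network were read from lists. Of 16 further genes shared by or typical of primed pluripotent cells, 0 rose and 6 fell (median log2 fold change -0.15). The share called was 37.5%, against 14.2% of all genes tested (7.69% higher, 6.47% lower). OTX2, a homeobox factor of the primed state, fell by 0.85 on the log2 scale, from a mean of 124 to 68.0 (adjusted p = 0.00497 in limma), in every alternative tried. USP44 (-0.35) and CD24 (-0.32) also fell, but neither was called on dropping WT replicate 1, WT replicate 2 or the variance trend (adjusted p from 0.0525 to 0.136, both ends for USP44). SOX2 and ZIC2 fell as well. The markers DNMT3B (18756 in WT and 19178 in MEK5DD), TDGF1 (9531 and 10685), PODXL (22083 and 20819) and L1TD1 (10184 and 9050) were abundant in both groups and were not called in limma over all 4 libraries. With a library left out the list's falls numbered from 1 (without either WT library) to 10 (without MEK5DD replicate 1), and 1 gene fell on dropping the variance trend. No gene of the list rose with edgeR or DESeq2 either, and 1 was higher at an unadjusted p under 0.05. TDGF1 was called higher with the replicate block (adjusted p = 0.0298 in limma) and on dropping MEK5DD replicate 1 or MEK5DD replicate 2. L1TD1 was called lower with the replicate block (adjusted p = 0.0170 in limma) and on dropping MEK5DD replicate 2. Its groups overlap, at 9895 and 10474 in WT and 8114 and 9985 in MEK5DD. PODXL was called lower on dropping MEK5DD replicate 1. In fits without a MEK5DD library the spread comes from the WT libraries alone.

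Of 17 genes linked to the naive state 11 are listed and were tested, of which 4 rose and 1 fell (median 0.74). The share called was 45.5%, against 14.2% of all genes tested. NLRP7 rose from a mean of 96.8 to 214 (log2 fold change 1.14, adjusted p = 0.000278 in limma), KLF5 from 34.1 to 78.0 (1.17, adjusted p = 0.003) and FGF4, a target of POU5F1 and SOX2, from 136 to 255 (0.90, adjusted p = 0.00054). These 3 kept their call in every alternative tried. KLF4 rose by 0.74 (adjusted p = 0.0314 in limma). Its adjusted p was 0.0850 on dropping WT replicate 1, 0.0515 on dropping WT replicate 2, 0.136 on dropping MEK5DD replicate 1, 0.138 in DESeq2 and 0.103 on dropping the variance trend. The nuclear receptor gene NR5A2, named after its value was seen, was the naive gene that fell (-0.37, adjusted p = 0.00796 in limma), with 0.169 on dropping WT replicate 2 and 0.121 on dropping the variance trend. KLF17, DPPA5, DNMT3L, ARGFX, KHDC1L and KHDC3L are not listed. TFAP2C, a transcription factor gene of the naive list, had 793 in WT and 923 in MEK5DD (0.22, adjusted p = 0.0991). The other tested genes of the list were not called either, and their estimates went both ways. ALPPL2 (-0.81) and ESRRB (-0.50) had negative estimates, and TBX3 (0.94), DPPA3 (0.80) and SUSD2 (0.50) positive ones. These genes were scarce, with means over all libraries from 11.2 for TBX3 to 46.5 for SUSD2. The list's median of 0.74 is the value of KLF4.

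Of 24 tested paralogs and pseudogene copies, 0 rose and 5 fell (median -0.10), 20.8% against 14.2% of all genes tested. The POU factor gene POU3F1 fell by 0.76 on the log2 scale, from 155 to 90.6 (adjusted p = 0.00683 in limma; 0.0562 on dropping WT replicate 2 and 0.0740 on dropping the variance trend). SALL1 (-0.37) and SALL2 (-0.34), relatives of SALL4, fell as well. Their adjusted p were 0.0662 and 0.0839 on dropping WT replicate 2 and 0.0998 and 0.111 on dropping the variance trend, and that of SALL2 was 0.0511 on dropping WT replicate 1. SALL3 had -0.21 (adjusted p = 0.0736). LIN28B, the paralog of LIN28A, had -0.12 (adjusted p = 0.375). Of the relatives of TFCP2L1, GRHL2 fell (-0.35, adjusted p = 0.0113 in limma), with an adjusted p of 0.119 on dropping WT replicate 1, 0.141 on dropping WT replicate 2 and 0.110 on dropping the variance trend. TFCP2 (-0.08), UBP1 (0.03), GRHL1 (0.05) and GRHL3 (-0.03) were not called. On dropping WT replicate 2 or the variance trend 0 relatives fell, and the number was 2 on dropping WT replicate 1. No relative rose with edgeR or DESeq2, 1 was higher at an unadjusted p under 0.05, and 2 and 1 rose on dropping MEK5DD replicate 1 and MEK5DD replicate 2.

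Of 18 genes of the LIN28 and let-7 axis, 3 rose and 3 fell (median -0.05), 33.3% called against 14.2% of all genes tested. The let-7 targets IGF2BP3 (-0.35), HMGA2 (-0.33) and IGF2BP1 (-0.24) fell. None of these 3 was called on dropping the variance trend (adjusted p from 0.126 for HMGA2 to 0.182 for IGF2BP1). On dropping WT replicate 2 the adjusted p of HMGA2, IGF2BP1 and IGF2BP3 were 0.137, 0.281 and 0.0676, and on dropping WT replicate 1 those of IGF2BP1 and IGF2BP3 were 0.267 and 0.0585. CCND2 and ARID3A were among the genes that rose, neither of which was called by DESeq2 or on dropping either WT library. Together 1 gene of this axis was called on dropping WT replicate 1, 1 on dropping WT replicate 2 and 0 on dropping the variance trend. Poly(A) libraries do not measure let-7 itself. Of 14 genes of the NuRD complex, the SALL4 partner, 0 rose and 3 fell (median -0.0016), 21.4% against 14.2% of all genes tested. The genes that fell were CHD3 (-0.40), MTA3 (-0.32) and MTA1 (-0.24). Their adjusted p were 0.114, 0.121 and 0.181 on dropping the variance trend. For MTA3 and MTA1 they were 0.124 and 0.321 on dropping WT replicate 1 and 0.0897 and 0.307 on dropping WT replicate 2, and MTA1 had 0.0688 in DESeq2. No NuRD gene rose with edgeR, with DESeq2 or at an unadjusted p under 0.05, and 2 rose on dropping MEK5DD replicate 2. The PRDM14 partners CBFA2T2 (-0.13) and CBFA2T3 (-0.15) were not called.

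**Figure D5:**
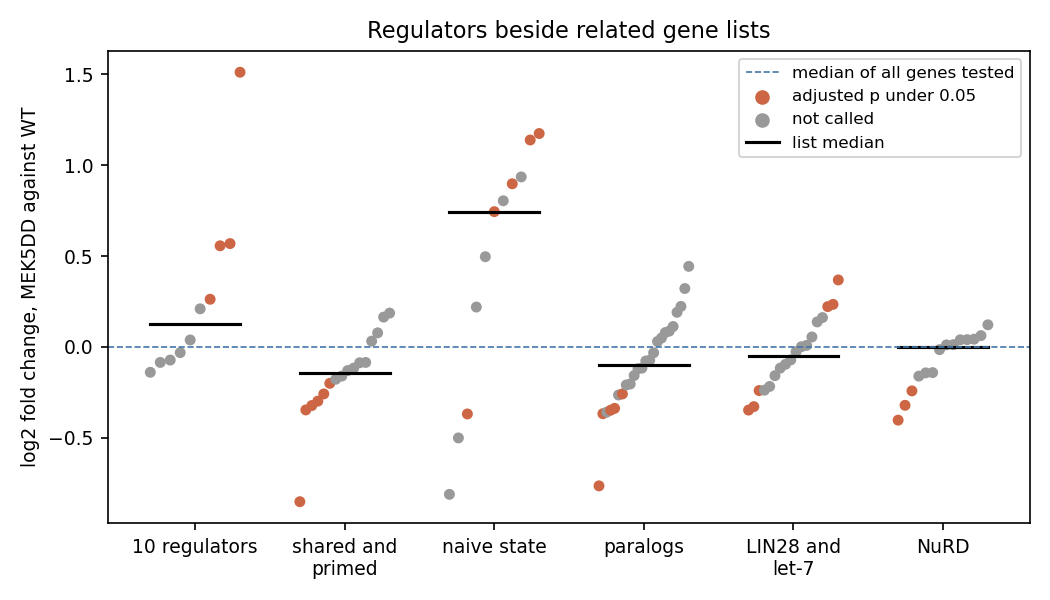
Log2 fold change of each tested gene in the 10 regulators and 5 related lists (orange where limma's adjusted p is under 0.05), with the median of each list as a bar and the median of all genes tested as a dashed line. The naive list has a median of 0.74, and every called gene of the shared and primed list lies below 0.

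Markers of other cell types that the cultures could hold moved both ways beside these values. Over all genes tested, 7.69% were called higher and 6.47% lower in limma. Summed neuroectoderm markers came to 8028 and 8202 in WT and 8702 and 8203 in MEK5DD, with 1 of 7 tested genes higher and 4 lower. The sum was mostly NES, the gene that rose (log2 fold change 0.35, adjusted p = 0.00237 in limma). NES was not called on dropping WT replicate 1 or the variance trend. SIX6 (-2.72), SOX1 (-2.41), MAP2 (-2.13) and SIX3 (-1.21) fell, which the sum does not show. SIX6 went from a mean of 1277 in WT to 193 in MEK5DD (adjusted p = 2.1e-09 in limma). Summed primitive streak and mesoderm markers came to 2934 and 2826 in WT and 5615 and 5902 in MEK5DD, mostly KDR, with 2 of 5 higher and 0 lower in limma. Summed endoderm markers came to 202 and 215 in WT and 126 and 115 in MEK5DD (1 of 4 higher, 2 lower), and SOX17, FOXA2 and GATA6 are not listed. Summed amnion and trophoblast markers came to 448 and 485 in WT and 270 and 285 in MEK5DD (1 of 4 higher, 3 lower), and CDX2, ISL1 and TP63 are not listed. Summed fibroblast markers came to 7417 and 7335 in WT and 9170 and 8822 in MEK5DD (3 of 4 higher, 0 lower in limma). This sum was mostly THY1, which was not called (log2 fold change 0.10, adjusted p = 0.302 in limma). The fibroblast markers that rose were TAGLN (1.02), COL1A2 (0.75) and COL1A1 (0.64), the last not called on dropping the variance trend. COL3A1, DCN, LUM and POSTN are not listed. The 0 counts of lower mesoderm and fibroblast markers were also 0 with edgeR, with DESeq2 and at an unadjusted p under 0.05. The part of these markers in the changes of the regulators was not tested. In bulk RNA a change in the number of cells of a kind and a change in RNA per cell cannot be told apart.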

How the data were processed

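The deposited table gives, per the labels and the file name, gene counts normalised by the authors (unit: signal). Build hg38 and the tools DESeq2 1.26.0, featureCounts 1.5.3, STAR and Trimmomatic 0.36 come from the submitters' processing notes, which assign them no role. Neither the annotation nor the strand setting is stated. In each library all values were whole multiples of its smallest value (100% within 0.001 of a whole number), so reads were recovered by division. In MEK5DD replicate 2 that value, 0.997, is too close to 1 for an automatic check, and recovery there rests on the multiples alone. Every listed gene has at least 1 read in each library.

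The test was limma 3.58.1 (R 4.3.3) with a mean-variance trend on log2(value + 1), which understates the change of low genes, over the 15721 genes that reached a value of 10 in 2 or more libraries. Tests were two-sided, with Benjamini-Hochberg adjustment over those genes and a threshold of 0.05. No covariate was used, and the labels give no batch. The procedure was also run on simulated data, in which the variance followed a trend on the mean by construction, so that run cannot test the trend. Coordinates and lengths came from GENCODE v29 (GRCh38), which holds 97.8% of the symbols. The settings varied were the pseudocount, the filter, the scaling, the variance model, a replicate block and leaving out each library, beside edgeR 4.0.16 and DESeq2 1.42.0 on recovered reads.

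The 10 regulators, the lists and the motifs were chosen with earlier results of these data known. Named genes are the regulators, MAP2K5, SOX2, paralogs and neighbours of called regulators, and up to 4 called genes per list with the largest change and a mean of at least 50. Of the neighbours of regulators that were not called, the called ones were named after their values were seen, as were the genes that complete a count or serve as cell type markers. Some genes are counted within their lists but not reported here by name.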

Additional observations from a re-analysis of the deposited data

How the results depend on the processing

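The count of called genes was 2226. It was 439 without the mean-variance trend, 1358 with DESeq2, 3349 with the replicate block, and 1160 to 4629 when each library was left out in turn. Of the 10 regulators 4 were called. That count was 1 (DPPA2) without the trend, 5 with the replicate block and 3 to 6 when a library was left out, and it was 4 under the other pseudocounts, filters and scalings, with edgeR and with DESeq2. No regulator fell by the test except LIN28A without MEK5DD replicate 1 (-0.22), and the estimate of POU5F1 ran from -0.038 without MEK5DD replicate 1, a change of sign, to 0.12 without MEK5DD replicate 2 when each library was left out. The replicate numbers were not shown to pair the libraries: deviations of same-numbered libraries correlated at 0.05 over 15721 genes. With 1 library left out, the lone library is assumed to vary like the other group. On dropping a WT library the spread thus comes from the MEK5DD libraries alone, which were less alike than the WT libraries. Depth limits DPPA2 and TFCP2L1 most, where the lowest library has a counting error of 6.40% and 6.34%.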
